A study of Rattus norvegicus with 21 samples.

Results

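Rat hearts whose coronary artery had been tied off for 24 h were compared with the hearts of Sham controls, across all genes with enough reads to test. The comparison uses 6 of the 21 bulk RNA sequencing libraries of the series, 3 of the group MI24h and 3 of the group Sham, and 11742 of the 17085 gene symbols passed the filter on low counts. In MI24h the left anterior descending artery, which feeds the front wall of the left ventricle, stayed ligated for the 24 h until the heart was taken, with no reperfusion. Sham hearts were the controls. Both groups are Sprague Dawley rats, an outbred laboratory strain, and the labels call the tissue of both the infarct zone, also in Sham, where there is no infarct. The design text mentions fenofibrate, a PPARα agonist, given before injury, and the titles of other libraries carry an F that the labels do not explain, while those of these 6 libraries do not. The labels give no age or sex. Nothing in them ties a library to an animal, so the p-values measure a spread between libraries, which may be technical. For the edgeR tests that spread was estimated from all 21 libraries, not from these 6 alone, and it need not equal the spread within Sham. Other groups of the series had the artery reopened after 1 h (MI1h_R) or 6 h (MI6h_R). Beyond the pooled fit they enter only where named.

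Heart muscle cells burn mostly fatty acids in tightly packed mitochondria, with ketones and branched-chain amino acids among their other fuels. They contract through calcium released from an internal store. When a coronary artery closes, oxygen runs out, these cells stop beating and die, and their proteins and mitochondrial contents leak out and act as alarm signals. Neutrophils and then monocytes enter the dying wall, and fibroblasts and vessel cells switch from upkeep to repair. These are general facts about infarction and not results of these libraries.

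The 6 libraries held between 13389749 and 17053737 counts each. Transcripts of the mitochondrial genome took 16.95%, 13.7% and 17.8% of the counts in MI24h replicates 11, 21 and 41, against 36.9%, 33.5% and 38.5% in Sham replicates 11, 31 and 41. The groups did not overlap (exact permutation test, two-sided p = 0.1, the smallest that 3 libraries against 3 allow). Levels are given in CPM, the counts of a gene relative to the library total, after TMM scaling, a method that sets most genes to no net change, and the 3 values of a group stand in the order of replicates 11, 21 and 41 for MI24h and 11, 31 and 41 for Sham. The Sham libraries differed among themselves. Genes listed for recruited monocytes and macrophages were more abundant in Sham 31 than in the other Sham libraries. Their summed level, over 21 genes, was 14472 to 16230 CPM in MI24h, 5391 CPM in Sham 31, and 877 and 825 CPM in Sham 11 and 41. The level of Myh6, the fast cardiac myosin, was less in Sham 31 than in the other Sham libraries. In Sham 31, 726 genes were over 2-fold above and 802 over 2-fold below the mean log level of the other Sham libraries, and in Sham 11 these numbers were 1099 and 560. Across genes the Pearson correlation of log2(CPM + 1) was 0.932 between Sham 11 and 31, 0.963 between Sham 11 and 41 and 0.966 between Sham 31 and 41. Where leaving out a library changed the call of a named gene, that value closes the paragraph on it. The same holds where it moved the fold of a called gene by over 1.5 times. Changes of a call or sign between 7 scalings follow, with the log2 fold changes under those scalings in parentheses. For genes not called, turns of sign with a library left out are listed in the last paragraph. Genes at 0 counts in every library of a group are left out of these checks, since their fitted fold has no fixed size.

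The tissue label was checked against defining markers. The cardiomyocyte genes, among them myoglobin (Mb, 9.16-fold lower), had counts in every library, and their summed level was 6882 to 10171 CPM in MI24h, against 57623 to 115280 CPM in Sham. The ventricular light chain Myl2, usually among the most abundant transcripts of a ventricle, was at only 0.615 CPM in MI24h and 6.60 CPM in Sham, a level that is low beside the other sarcomere genes in both groups. The ventricular regulator Irx4 was at 3.72, 5.13 and 4.32 CPM in MI24h, against 61.1, 52.96 and 56.5 CPM in Sham. Skeletal muscle genes were almost absent, with a summed level of at most 3.50 CPM in MI24h and 2.52 CPM in Sham. The summed level of neutrophil genes was 846 to 3949 CPM in MI24h, against 96.8 to 338 CPM in Sham. The part of these cells in the results below was not tested. In bulk tissue, fewer cells of a type and less RNA per cell cannot be told apart, and this holds for every gene group below. Myl2 had a log2 fold change of -2.68 without Sham 41, in place of -3.41.

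With edgeR's quasi-likelihood test, fitted to all 21 libraries, 6371 genes or 54.3% of those tested were called between MI24h and Sham at a Benjamini-Hochberg adjusted p under 0.05. Of them 3293 rose (28% of all genes) and 3078 fell (26.2%), while a fit of only these 2 groups called 4615 genes. For 53.3% of the genes tested the groups did not overlap. The count of a gene group has to be read against these shares. The split depends on scaling. With library size alone 6484 genes rose and 1504 fell, and the median log2 fold change of all genes was 0.80 in place of 0.07. On log2(TPM + 1) 7375 genes rose and 1208 fell. The 7 scalings were TMM, median-of-ratios factors, upper-quartile factors, TMM without the mitochondrial genome, library size of nuclear genes, library size alone and log2(TPM + 1). Under all 7, 3053 genes were called higher (26%) and 1180 lower (10%). For a gene group below, the count that held under the 7 scalings is therefore given beside the main one. It is a stricter check for falls than for rises. The median of all genes was 0.41 with library size of nuclear genes and 0.83 on log2(TPM + 1). The lowest was 0.02, with median-of-ratios factors. A small fall can thus drop out through the upward shift alone, while a rise is rarely put to such a test. The simulated check found 50 of 50 genes changed 4-fold and 20 of 50 changed 2-fold, but 0 of 50 changed 1.5-fold. It changed only a small part of the genes, while 54.3% were called here. Its rates therefore need not hold for this comparison, where some changes under 1.5-fold were called, but small changes can still be missed.

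**Figure D1:**
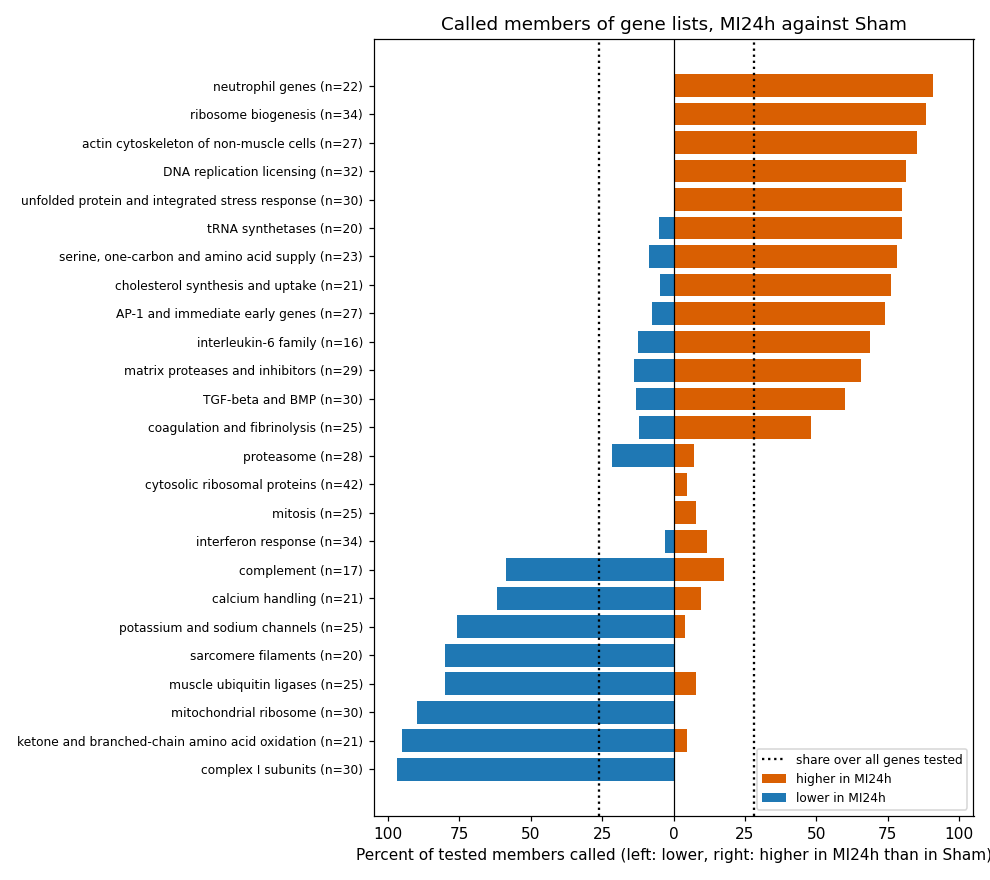
Share of the tested members of each gene list that edgeR called higher (right, orange) or lower (left, blue) in MI24h than in Sham, in percent of the members tested, with dotted lines at the shares over all 11742 genes (28% and 26.2%). Ribosome biogenesis, neutrophil and actin cytoskeleton genes extend only to the right, and complex I and mitochondrial ribosome genes only to the left.

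A first view that needs no scaling between libraries is the share of each partner in pairs of genes that do the same work, taken from TPM, which are per length, within a library. Heart muscle uses its own isoform of many housekeeping proteins, and in 9 of 10 pairs the heart or muscle form lost ground to its widely expressed or fetal partner in all 3 MI24h libraries. The insulin-dependent glucose transporter Slc2a4 made up 1.15%, 3.36% and 2.16% of the pair with the basal transporter Slc2a1 in MI24h, against 93.7%, 91.4% and 95.4% in Sham. Both partners were called, with Slc2a4 at 8.02, 9.04 and 8.84 CPM in MI24h, against 459.9, 331 and 664 CPM in Sham. Slc2a1 was at 669.9, 255 and 383 CPM in MI24h, against 29.9, 29.4 and 30.7 CPM in Sham. The difference in share was wider for the glucose transporters than for any of the other 9 pairs.

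Heart lactate dehydrogenase Ldhb was 26.5% ± 4.11 of the pair with Ldha in MI24h and 81.0% ± 3.11 in Sham (SD, n = 3 each). The muscle enolase Eno3 was 2.45% ± 0.174 of the pair with Eno1 in MI24h and 40.7% ± 11.9 in Sham, and the muscle elongation factor Eef1a2 4.15% ± 0.674 of the pair with Eef1a1 in MI24h and 40.9% ± 10.7 in Sham (SD, n = 3 each). For the adenine nucleotide carriers, which pass ATP out of mitochondria, Slc25a4 was 61.2% ± 1.44 of the pair with Slc25a5 in MI24h and 93.3% ± 1.01 in Sham (SD, n = 3 each). Slc25a4 itself had a log2 fold change of -3.16 ± 0.36 (edgeR adjusted p = 1.7e-06). In the α-actin pair cardiac Actc1 was at 46.4% ± 7.03 in MI24h and 85.8% ± 8.04 in Sham (SD, n = 3 each), and its fetal and skeletal partner Acta1 was not called (log2 fold change 0.42). None of these 9 pairs overlapped between groups, and each had an exact two-sided permutation p of 0.1, the smallest the design allows. Cardiac troponin I (Tnni3) was over 99% of its pair with Tnni1 in all 6 libraries, and these values overlapped. For the myosins the Sham libraries themselves differed, with Myh6 at 32.6%, 38.8% and 27.7% of Myh6 and Myh7 in MI24h, against 91.2%, 51.4% and 94.5% in Sham. In 1 or more of the 7 scalings the call was lost or the sign turned for Myh7 (0.69), and a call was gained for Acta1 (0.76 to 1.37).

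**Figure D2:**
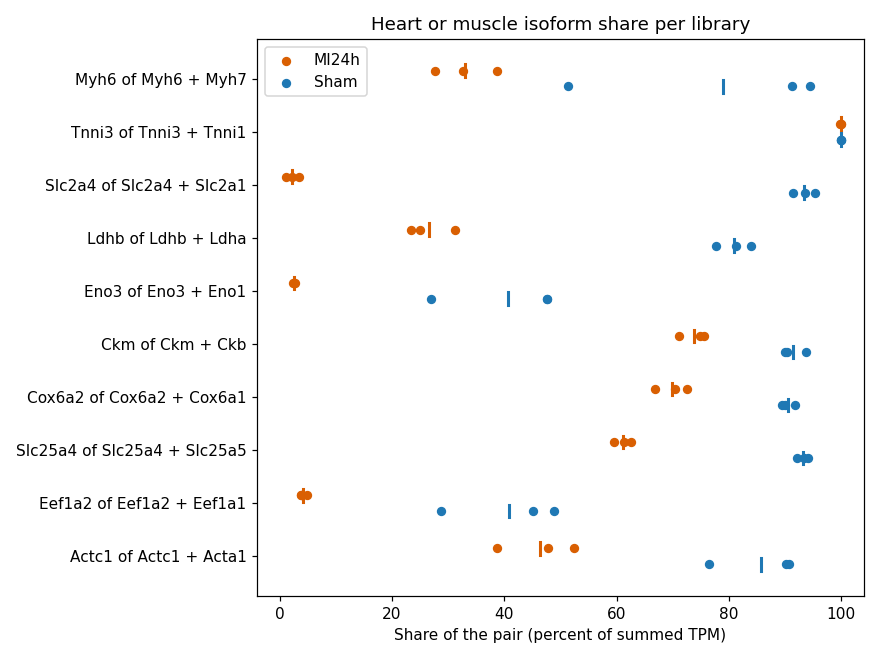
Share of the heart or muscle isoform in 10 isoform pairs, as percent of the summed TPM of the pair, one point per library, with MI24h (orange) above Sham (blue) in each row and the group mean as a bar. The MI24h points of 9 pairs lie left of all Sham points, and Tnni3 stays near 100% in both groups.

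Contraction and excitation genes fell as a group, but unevenly. Of 20 sarcomere filament genes tested 16 fell and 0 rose, 14 of the falls under all 7 scalings, with a median log2 fold change of -2.83 against 0.07 over all genes. Cardiac troponin I (Tnni3) was 11.6-fold lower and α-tropomyosin Tpm1 5.17-fold lower in MI24h. The filament nucleator Lmod3, which builds thin filaments, was 15.01-fold lower. Myh6 was at 1078, 1224 and 777 CPM in MI24h, against 21386, 6661 and 22298 CPM in Sham, and Actc1 was at 1020.3, 3234 and 2841 CPM in MI24h, against 15312, 7073 and 18276 CPM in Sham. The MI24h values of both lay under every Sham value, with Sham 31 the lowest of Sham. The slow myosin Myh7 (log2 fold change -0.74 ± 0.60) and Acta1 were not called. Without Sham 31 the log2 fold change of Myh7 was 0.30. With at least 1 of the 7 scalings the call was lost or the sign turned for Myh7 (0.69), and a call was gained for Acta1 (0.76 to 1.37).

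Around the sarcomere, some genes rose. Of 18 Z-disc genes 9 fell and 2 rose (2 rises and 6 falls under all 7 scalings). The largest fall was that of Ky, a protease-like protein needed to maintain the Z-disc, which was 169-fold lower, and the stretch-sensing adaptor Fhl2 was 10.5-fold lower. Filamin C (Flnc), an actin cross-linker recruited to damaged myofibrils, was at 2128, 1911 and 1531 CPM in MI24h, against 393, 321 and 259 CPM in Sham. Its MI24h values were all above the highest Sham value. Fhl1, the relative of Fhl2 in stretch signalling, was 2.12-fold higher. Desmin (Des), the intermediate filament of muscle, and the small chaperone Cryab were the most abundant genes of this list and were not called (0.36 and -0.58). At the intercalated disc, where heart cells join, 9 of 15 genes fell, but only 2 of the falls held under all 7 scalings, and 2 rose. The mitochondrial and disc protein Tmem65 was 5.59-fold and the desmosome linker Dsp 6.31-fold lower, and α-catenin Ctnna1, the most abundant of those that fell, 1.59-fold. Connexin 43 (Gja1), the main gap junction protein of ventricle, had 293 CPM in MI24h and 683 CPM in Sham (log2 fold change -1.22 ± 0.32). The risers were the Xin repeat proteins Xirp1 and Xirp2, actin binders of disc and injured muscle, with Xirp2 at 1709.9, 2012 and 1722 CPM in MI24h, against 389, 535 and 282 CPM in Sham. Fhl1 lost its call without Sham 11, Sham 41 or MI24h 41 (log2 fold change 0.75 to 0.83) and had a log2 fold change of 1.90 without Sham 31, in place of 1.08. Across the 7 scalings, at least once, the call was lost or the sign turned for Cryab (0.16 to 0.42), Ctnna1 (-0.33 to 0.34) and Gja1 (-0.47 to -0.21), and a call was gained for Des (0.71 to 1.36).

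Of 21 calcium handling genes 13 fell and 2 rose, with a median log2 fold change of -1.86, and 9 falls held under all 7 scalings. Phospholamban (Pln), the brake of the calcium pump, was at 36.9, 86.1 and 56.7 CPM in MI24h, against 2738, 2820.2 and 4086 CPM in Sham. Its pump Atp2a2 was at 1000.0, 1262 and 1111 CPM in MI24h, against 14220.1, 9891 and 16688 CPM in Sham. The MI24h values of both genes were far under the Sham values, with log2 fold changes of -5.74 ± 1.07 for Pln and -3.60 ± 0.38 for Atp2a2 (edgeR adjusted p = 0.000207 and 8.74e-07). The store proteins Hrc and Asph were 18.01-fold and 4.19-fold lower. The channel subunit Cacna2d1 rose 1.98-fold. Cacna2d1 lost its call without Sham 31, Sham 41, MI24h 11 or MI24h 21 (log2 fold change 0.68 to 0.93) and had a log2 fold change of 1.72 without Sham 11, in place of 0.99.

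Of 25 potassium and sodium channel and pump genes 19 fell and 1 rose (median -2.09), 10 of the falls under all 7 scalings. Kcna5, of the ultrarapid repolarizing current, was at 0.364, 0.489 and 0.48 CPM in MI24h, against 32.8, 9.28 and 25.8 CPM in Sham. The pacemaker channel gene Hcn2 was 18.3-fold lower and the sodium channel subunit Scn4b 44.2-fold lower. The pump regulator Fxyd1 was 7.22-fold lower. Atp1b1, the beta subunit of the sodium pump, had a log2 fold change of -1.33 ± 0.31. One gene rose. Kcnj2, of the inward rectifier that sets the resting potential, was at 35.5, 12.9 and 6.72 CPM in MI24h, against 10.9, 4.10 and 6.36 CPM in Sham. The lowest MI24h value lay under the highest Sham value. Kcnj11, of the ATP-sensitive potassium channel, was 13.2-fold lower. Kcnj2 lost its call without Sham 31, Sham 41 or MI24h 11 (log2 fold change 0.47 to 1.303). Depending on which of the 7 scalings was used, the call was lost or the sign turned for Atp1b1 (-0.59 to -0.32).

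**Figure D3:**
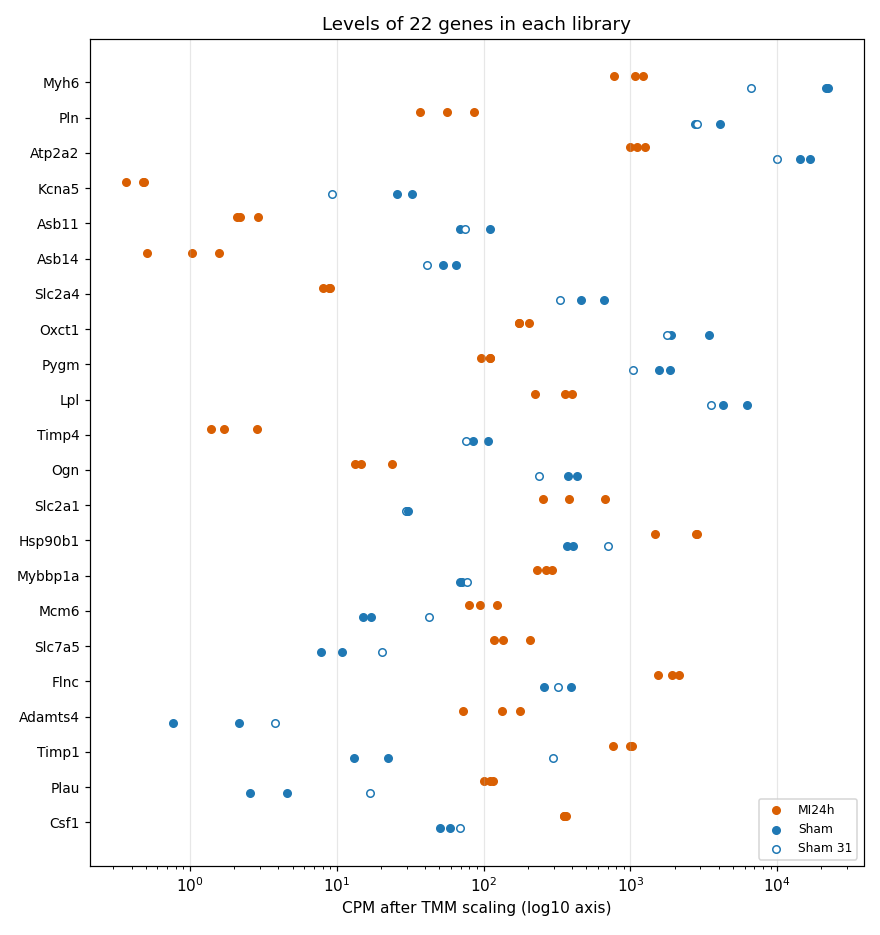
CPM on a log10 axis for 22 genes described in the text, one point per library, MI24h (orange) above Sham (blue) in each row, with library Sham 31 as an open symbol. The upper rows, Myh6 to Ogn, have their MI24h points left of Sham. The lower rows, Slc2a1 to Csf1 with the muscle gene Flnc among them, have them right of it.

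Ubiquitin ligases known from striated muscle, which tag proteins for breakdown or signalling, fell widely. Of 25 such genes tested 20 fell and 2 rose, with a median log2 fold change of -2.61, and 15 of the falls held under all 7 scalings. The ankyrin repeat adaptor Asb11 was at 2.91, 2.08 and 2.19 CPM in MI24h, against 68.6, 74.5 and 110.2 CPM in Sham. Its relative Asb14 was at 0.51, 1.59 and 1.03 CPM in MI24h, against 53.1, 41.1 and 64.6 CPM in Sham. Both were at under 3 CPM in every MI24h library and over 40 CPM in every Sham library. The atrophy ligase Trim63 (MuRF1) was 7.02-fold lower and Fbxo32 (atrogin-1) 6.10-fold lower, the second not under every scaling. The membrane repair protein Trim72 was 4.51-fold lower, the kelch adaptor Klhl31 8.58-fold, and the mitochondrial ligase Mul1 2.62-fold. The kelch adaptor Klhl40, which stabilizes thin filament proteins, went the other way at 39.8, 13.2 and 29.1 CPM in MI24h, against 4.35, 6.46 and 2.52 CPM in Sham, as did Traf6 of immune receptor signalling (2.83-fold higher). Of the proteasome, to which such tags lead, most genes were not called. Of 28 genes 2 rose (Psmd11 and the immune subunit Psmb8, 1.43-fold and 1.61-fold) and 6 fell, among them Psme1 and Psmb7 (2.79-fold and 1.67-fold), with a median of -0.16 (1 rise and 1 fall under all 7 scalings). The abundant Psmd2 was not called (-0.10). With library size alone 17 of the 28 were called higher and 1 lower (median 0.59). The number that fell was 12 without Sham 11 and 3 without Sham 41 or without MI24h 11. Fbxo32 had a log2 fold change of -1.90 without Sham 11, in place of -2.61. Traf6 had a log2 fold change of 2.36 without Sham 11, in place of 1.502. Psmb8 lost its call without Sham 31, MI24h 11 or MI24h 21 (log2 fold change 0.48 to 0.69). Under at least 1 of the 7 scalings the call was lost or the sign turned for Fbxo32 (-1.25), Mul1 (-0.33), Psmb8 (0.63), Psmb7 (0.015 to 0.27) and Psmd2 (0.24 to 0.90).

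Of 21 cardiac transcription factor genes 9 fell and 3 rose, but only 2 falls held under all 7 scalings. Those 2 were Klf15, a clock-driven regulator of amino acid and lipid use, at 2.11, 4.83 and 6.17 CPM in MI24h, against 107, 107 and 146 CPM in Sham, and Irx4. Nkx2-5, of the core cardiac set, had a log2 fold change of -1.59 ± 0.37. Srf, the activator of actin genes, rose 1.49-fold, Meox1 of activated fibroblasts 3.17-fold and Nfatc1 2.35-fold. The stretch gene Ankrd1, the most abundant of the list, was not called (0.72 ± 0.37). The natriuretic peptides Nppa and Nppb, released by a strained wall, rose 3.31-fold and 2.25-fold. Nfatc1 lost its call without Sham 31, Sham 41, MI24h 11 or MI24h 21 (log2 fold change 0.85 to 1.24) and had a log2 fold change of 2.35 without Sham 11, in place of 1.23. Ankrd1 was called without Sham 31 (log2 fold change 1.14). Nppa lost its call without Sham 11, Sham 41, MI24h 11, MI24h 21 or MI24h 41 (log2 fold change 1.17 to 1.84) and had a log2 fold change of 4.08 without Sham 31, in place of 1.73. In 1 or more of the 7 scalings the call was lost or the sign turned for Nkx2-5 (-0.59) and Nfatc1 (1.18), and a call was gained for Ankrd1 (1.07 to 1.82).

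Of 21 genes for oxidation of ketone bodies and branched-chain amino acids 20 fell and 1 rose, with a median log2 fold change of -2.97, and 19 of the falls held under all 7 scalings. Oxct1, which activates ketone bodies for burning, was at 205, 174 and 173 CPM in MI24h, against 1901, 1787 and 3439.8 CPM in Sham. Aldh6a1, of valine breakdown, was at 96.3, 98.1 and 97.9 CPM in MI24h, against 1189, 902 and 1298 CPM in Sham. The groups did not overlap for either gene. Hibch, Dbt and Bcat2, a hydrolase of valine breakdown, the core of the branched-chain dehydrogenase and the mitochondrial aminotransferase, were 5.85-fold, 3.78-fold and 4.91-fold lower. The cytosolic aminotransferase Bcat1, which does the same first step outside mitochondria, was at 284, 238 and 272 CPM in MI24h, against 8.41, 50.1 and 5.92 CPM in Sham, a 12.3-fold rise. Bcat1 had a log2 fold change of 5.22 without Sham 31, in place of 3.62.

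Of 14 glycogen genes 11 fell and 3 rose (3 rises and 5 falls under all 7 scalings). The muscle phosphorylase Pygm, which frees glucose from glycogen, was at 95.8, 111 and 111 CPM in MI24h, against 1566, 1035 and 1859 CPM in Sham. The liver form Pygl was at 235, 58.5 and 120.2 CPM in MI24h, against 5.95, 17.7 and 8.88 CPM in Sham. Pygm was thus lower and Pygl higher in every MI24h library than in any Sham library. The brain form Pygb was 7.69-fold lower, and the liver glycogen targeting subunit Ppp1r3b and the glycogen-binding protein Stbd1 were 4.17-fold and 1.54-fold higher. Of 17 triglyceride genes 10 fell and 5 rose (5 rises and 8 falls under all 7 scalings). The lipase Lpl, which frees fatty acids from blood lipids, was at 223, 356 and 398 CPM in MI24h, against 4294, 3529 and 6190.0 CPM in Sham, and its inhibitor Angptl4 was at 331, 157 and 317 CPM in MI24h, against 3.40, 38.9 and 12.9 CPM in Sham. The droplet coat Plin2 was 6.60-fold higher and the droplet-forming Fitm2 7.36-fold lower. Pygl had a log2 fold change of 3.04 without MI24h 11, in place of 3.67. Ppp1r3b had a log2 fold change of 1.34 without MI24h 11, in place of 2.06. Stbd1 lost its call without Sham 11 or MI24h 41 (log2 fold change 0.52 to 0.54). Angptl4 had a log2 fold change of 5.07 without Sham 31, in place of 3.86.

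Of 30 nuclear genes for the mitochondrial ribosome 27 fell and 0 rose (median -1.39, or -0.63 with library size alone), and 15 of the falls held under all 7 scalings. Mrpl3 was 3.63-fold, Mrpl16 4.74-fold and Mrpl4 2.73-fold lower, and the abundant Mrpl12 and Mrpl17 2.99-fold and 1.41-fold. Complex I, the entry of the respiratory chain, had 29 of 30 genes lower (29 under all 7 scalings) with a median of -2.42, among them Ndufs8 and Ndufs1 (6.12-fold and 8.94-fold), with the abundant Ndufv1 5.67-fold lower. The tested import and protease genes fell in 13 of 19 cases (6 under all 7 scalings, median -0.80), led by the protease subunit Clpx (6.64-fold), the import co-chaperone Grpel1 (3.63-fold) and Timm44 (3.06-fold). The abundant chaperones Hspa9 and Hspd1 fell 1.62-fold and 1.47-fold. Mrpl17 lost its call without Sham 31, Sham 41, MI24h 11 or MI24h 21 (log2 fold change -0.49 to -0.35). Hspd1 lost its call without Sham 41 or MI24h 11 (log2 fold change -0.43 to -0.42). With at least 1 of the 7 scalings the call was lost or the sign turned for Mrpl17 (-0.15 to 0.50), Hspa9 (0.0476 to 0.32) and Hspd1 (-0.20 to 0.46).

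Of 34 ribosome biogenesis genes, which process ribosomal RNA in the nucleolus, 30 rose and 0 fell, 29 of the rises under all 7 scalings, with a median log2 fold change of 1.28. Mybbp1a was at 291, 268 and 230.2 CPM in MI24h, against 71.3, 77.1 and 68.9 CPM in Sham. Ddx21, an RNA helicase of the nucleolus, was at 251, 239.9 and 231 CPM in MI24h, against 68.5, 77.7 and 61.9 CPM in Sham. All 3 MI24h values exceeded all Sham values for both, and Sham 31 was the highest of the Sham libraries for each. The processome part Utp20 was 3.47-fold higher, and the abundant nucleolar proteins Ncl and Npm1 2.502-fold and 1.99-fold. The proteins of the finished cytosolic ribosome were mostly not called on the TMM scale. Of 42 genes 2 rose and 0 fell, with a median of 0.06 (2 rises and 0 falls under all 7 scalings). Rpl3 and Rps2 were the risers, 2.07-fold and 1.62-fold, while the abundant Rplp0 and Rpsa were not called (0.16 and 0.28), nor was Rpl6 (0.40). Without Sham 31, 9 of them rose, and without Sham 41 none did. The result depends on the scaling. With library size alone 36 of 42 were called higher with a median of 0.79, close to the median of 0.80 of all genes. The biogenesis genes had a median of 2.000 with library size alone, and 34 of 34 were then higher. Rpl3 lost its call without Sham 41 (log2 fold change 0.83) and had a log2 fold change of 1.73 without Sham 31, in place of 1.05. Rps2 lost its call without Sham 11, Sham 41, MI24h 21 or MI24h 41 (log2 fold change 0.40 to 0.67). Rpsa was called without Sham 31 (log2 fold change 0.64). Rpl6 was called without Sham 31 (log2 fold change 0.73). Across the 7 scalings, at least once, a call was gained for Rplp0 (0.89 to 1.22), Rpsa (0.62 to 1.34) and Rpl6 (0.74 to 1.45).

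The enzymes that charge transfer RNA with amino acids rose in 16 of 20 cases and fell in 1, with 16 rises under all 7 scalings and a median of 0.77. Yars1, Cars and Tars1, for tyrosine, cysteine and threonine, were 3.11-fold, 2.59-fold and 2.68-fold higher, and the abundant Eprs and Vars1 2.06-fold and 1.59-fold. The one that fell, Fars2, is the phenylalanine enzyme of mitochondria (2.85-fold lower). Of 23 genes for serine, one-carbon units and amino acid import 18 rose and 2 fell, 18 of the rises under all 7 scalings (median 1.60). The leucine importer Slc7a5 was at 207, 118 and 136 CPM in MI24h, against 10.8, 20.2 and 7.79 CPM in Sham. The mitochondrial formate enzyme Mthfd1l was at 130.1, 81.5 and 109 CPM in MI24h, against 5.76, 14.9 and 6.58 CPM in Sham. Neither gene overlapped between the groups. The arginine importer Slc7a1 was 5.61-fold higher and the cystine importer Slc7a11 37.9-fold, from under 1 CPM on average in Sham. Those that fell were the aspartate aminotransferase Got1 (8.13-fold lower), which also serves mitochondrial hydrogen shuttling, and the glutamine importer Slc38a2 (1.33-fold lower). Mthfd1l had a log2 fold change of 4.14 without Sham 31, in place of 3.55. Slc7a11 had a log2 fold change of 6.04 without Sham 31, in place of 5.24. Slc38a2 lost its call without Sham 11, Sham 41, MI24h 21 or MI24h 41 (log2 fold change -0.45 to -0.25). Depending on which of the 7 scalings was used, the call was lost or the sign turned for Fars2 (-0.41) and Slc38a2 (-0.39 to 0.58).

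Cholesterol synthesis genes rose in 16 of 21 cases and fell in 1 (14 rises under all 7 scalings, median 1.01). Msmo1, a late enzyme of the pathway, was at 99.9, 108 and 116 CPM in MI24h, against 29.8, 43.4 and 28.3 CPM in Sham. Every MI24h value lay above every Sham value. Msmo1 was 3.19-fold and the master regulator Srebf2 2.37-fold higher, the sensor Insig1 was not called (0.30), and squalene synthase Fdft1 fell 1.84-fold. Insig1 was called without Sham 41 (log2 fold change 0.44). Under at least 1 of the 7 scalings the call was lost or the sign turned for Fdft1 (-0.13 to 0.13), and a call was gained for Insig1 (0.65 to 1.29).

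The unfolded protein response, which enlarges the folding capacity of the endoplasmic reticulum, and the linked stress response through ATF4 rose in 24 of 30 genes tested, with 0 falling, 23 rises under all 7 scalings and a median of 1.40. The reticulum chaperone Hsp90b1 was at 2782, 1469.5 and 2833 CPM in MI24h, against 368, 707 and 406 CPM in Sham. Hspa5 (BiP), the master chaperone, was at 4056, 1806 and 4001 CPM in MI24h, against 535, 897 and 805 CPM in Sham. The groups were separate for both. Hyou1 and Pdia4 were 3.26-fold and 4.92-fold higher, and the pseudokinase Trib3, induced by ATF4, 14.5-fold. By comparison, cytosolic heat shock chaperones had 6 up and 8 down of 26 (median 0.04, 5 rises and 3 falls under all 7 scalings). Their shares, 23.1% and 30.8%, lay near those of all genes (28% and 26.2%). Among them Hsph1 was 2.76-fold higher, and Dnaja4 and the muscle form Hspb6 were 3.72-fold and 5.48-fold lower. Cytosolic HSP90 (Hsp90ab1) was not called, at 2392 CPM in MI24h and 2396 CPM in Sham. Without Sham 41 the number of heat shock genes that fell was 5. In 1 or more of the 7 scalings the call was lost or the sign turned for Hsp90ab1 (0.0237 to 1.02).

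In 8 of the gene lists the promoters were searched for a motif known for that list. For these genes it was the element through which the ATF6 branch of this response is known to act, and the sequences below show where it lies. RefSeq promoters (build GRCr8) of 250 bases before to 50 bases after the start were matched by symbol for 25 of the 30 genes, and searched on both strands for the endoplasmic reticulum stress element, which reads CCAAT, any 9 bases and CCACG. It was found in 7 of the 25 (28%), against 21 of all 27457 promoters (0.0765%) and 13 of the 9076 promoters of tested genes (0.143%). The 7 genes were Hsp90b1, Dnajc3, Hspa5, Calr, Creld2, Xbp1 and Canx. All 7 were called higher, but so were 24 of all 30 genes of the list (80.0%), against 28% of all genes tested. Whether the element goes with the rise was not tested. The log2 fold changes of the 7 genes lay between 0.48 and 2.41. The lowest was that of Canx, which lost its call without Sham 11, Sham 41 or MI24h 41 (log2 fold change 0.38 to 0.42). The promoters of the 2 with the smallest p, with the element in capitals, lie at chr7:23012244-23012543 on the minus strand for Hsp90b1, which holds it 2 times, and at chr15:102432417-102432716 on the plus strand for Dnajc3 (log2 fold change 1.95 ± 0.25).
Hsp90b1: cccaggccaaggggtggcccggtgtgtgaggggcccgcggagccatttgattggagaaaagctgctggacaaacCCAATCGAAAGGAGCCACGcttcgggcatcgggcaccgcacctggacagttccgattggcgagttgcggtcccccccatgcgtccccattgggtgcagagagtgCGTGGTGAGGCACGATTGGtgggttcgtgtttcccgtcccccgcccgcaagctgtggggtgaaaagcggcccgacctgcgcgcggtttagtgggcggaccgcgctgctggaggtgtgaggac
Dnajc3: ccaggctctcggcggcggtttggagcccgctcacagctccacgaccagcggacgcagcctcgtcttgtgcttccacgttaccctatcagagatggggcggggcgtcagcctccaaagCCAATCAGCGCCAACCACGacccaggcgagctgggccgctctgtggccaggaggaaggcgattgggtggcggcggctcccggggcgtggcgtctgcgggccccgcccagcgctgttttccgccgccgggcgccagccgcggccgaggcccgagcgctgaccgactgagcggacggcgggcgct

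The element through which ATF4 acts on amino acid genes, TGATGNAA, was in the promoters of 5 of 17 matched genes of the amino acid list (29.4%), against 3.82% of all promoters and 1.96% of those of tested genes. They were Slc7a1, Slc1a4 and Pycr1, which rose, Got1, which fell, and Slc38a1, which was not called. Pycr1 had a log2 fold change of 2.93 without Sham 31, in place of 2.24. In the other 6 searches, the interferon element core (GAAA, any 2 bases and GAAA) was in 16 of 25 interferon gene promoters (64.0%, against 3.77% of all), the cell cycle element TTTGAA in 14 of 21 of the mitosis list (66.7%, against 18.1%) and the heat shock element GAANNTTC in 11 of 22 of the heat shock list, against 8.34% of all. The hypoxia core ACGTG was in 11 of 25 of the glycolysis list (44.0%, against 19.7%), the antioxidant core TGACNNNGC in 9 of 26 of its list (34.6%, against 12.2%), and the AAGGTCA element of nuclear receptors in 0 of 27 of complex I (against 4.37%). Of the 5 amino acid genes, the 2 with the smallest p, with the match in capitals, lie at chr12:11664238-11664537 on the plus strand for Slc7a1 and at chr1:252329822-252330121 on the minus strand for Got1.
Slc7a1: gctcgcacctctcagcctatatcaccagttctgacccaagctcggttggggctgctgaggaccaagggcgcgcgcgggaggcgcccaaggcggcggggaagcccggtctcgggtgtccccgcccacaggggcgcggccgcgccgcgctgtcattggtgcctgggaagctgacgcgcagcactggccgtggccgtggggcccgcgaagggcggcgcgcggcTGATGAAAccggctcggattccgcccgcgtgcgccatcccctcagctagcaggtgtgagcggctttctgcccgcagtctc
Got1: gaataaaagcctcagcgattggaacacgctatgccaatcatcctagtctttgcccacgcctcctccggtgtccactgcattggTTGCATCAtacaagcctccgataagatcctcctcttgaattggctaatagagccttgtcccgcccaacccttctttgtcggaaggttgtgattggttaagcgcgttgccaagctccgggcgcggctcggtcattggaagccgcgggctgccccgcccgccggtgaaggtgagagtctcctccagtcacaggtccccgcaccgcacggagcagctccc

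Of 26 genes of apoptosis, the orderly form of cell death, 8 rose and 4 fell (7 rises and 1 fall under all 7 scalings). The share that rose, 30.8%, lay near that of all genes (28%), and 15.4% fell, against 26.2% of all genes. The pore protein Bak1 was 2.32-fold and the BH3 protein Bid 4.45-fold higher. Those that fell were Casp12, Birc2 and the mitochondrial proteins Diablo and Cycs, cytochrome c, which also carries electrons in respiration (6.12-fold lower). Bcl2l1 was not called (0.12). Genes of lytic death rose in 9 of 16 cases and fell in 0 (median 1.11, 9 rises and 0 falls under all 7 scalings), with the kinase Ripk3 of necroptosis 6.96-fold, Ripk1 2.09-fold, the inflammasome sensor Nlrp3 5.95-fold and the cytokine Il1b 11.7-fold higher, and the membrane rupture protein Ninj1 2.05-fold. Of 18 growth arrest genes 14 rose and 2 fell (14 rises and 2 falls under all 7 scalings). The kinase Plk3 was 7.18-fold higher. Sesn1 and Ccng1 fell, 9.72-fold and 4.37-fold, and the antiproliferative gene Btg2 rose 1.79-fold. Bid had a log2 fold change of 2.78 without Sham 31, in place of 2.15. Casp12 lost its call without Sham 11, Sham 41, MI24h 21 or MI24h 41 (log2 fold change -0.89 to -0.58). Ripk3 had a log2 fold change of 4.12 without Sham 31, in place of 2.80. Il1b had a log2 fold change of 4.86 without Sham 31, in place of 3.54. With at least 1 of the 7 scalings the call was lost or the sign turned for Casp12 (-0.56 to 0.0842), Birc2 (-0.34 to 0.31) and Diablo (-0.30 to 0.34), and a call was gained for Bcl2l1 (0.46 to 1.10).

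Of 32 replication genes 26 rose and 0 fell, 26 of them under all 7 scalings, with a median log2 fold change of 1.36. The helicase subunit Mcm6 was at 79.9, 123 and 94.6 CPM in MI24h, against 17.2, 42.5 and 15.02 CPM in Sham. Mcm7 was at 76.3, 99.7 and 98.0 CPM in MI24h, against 27.4, 46.5 and 29.4 CPM in Sham. All MI24h values lay above the Sham values for both, and Sham 31 was the highest of Sham. Cdt1, which loads the helicase, was 3.31-fold and the clamp Pcna 1.68-fold higher. Of 25 mitosis genes 2 rose and 0 fell, with a median of 0.25 (2 rises and 0 falls under all 7 scalings). The proliferation marker Mki67 was at 32.3, 47.6 and 28.5 CPM in MI24h, against 37.6, 39.2 and 17.3 CPM in Sham, so that the groups overlapped. The 2 that rose were the cytokinesis gene Anln (1.47 ± 0.41) and the kinase Nek2 (2.18 ± 0.57), and Aurka and Prc1 were not called (0.76 and -0.16). Without Sham 31, 31 of 32 replication genes (median 1.87) and 9 of 25 mitosis genes (median 0.77) were higher. With library size alone 32 replication and 13 mitosis genes were called higher (medians 2.08 and 0.94). Whether the lists differ was not tested. Mcm6 had a log2 fold change of 2.64 without Sham 31, in place of 1.99. Pcna lost its call without Sham 11, Sham 41 or MI24h 41 (log2 fold change 0.50 to 0.70). Nek2 had a log2 fold change of 3.29 without Sham 11, in place of 2.18. Aurka was called without Sham 31 (log2 fold change 1.71). Across the 7 scalings, at least once, the call was lost or the sign turned for Prc1 (0.16 to 0.69), and a call was gained for Mki67 (0.86 to 0.90) and Aurka (1.08 to 1.45).

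**Figure D4:**
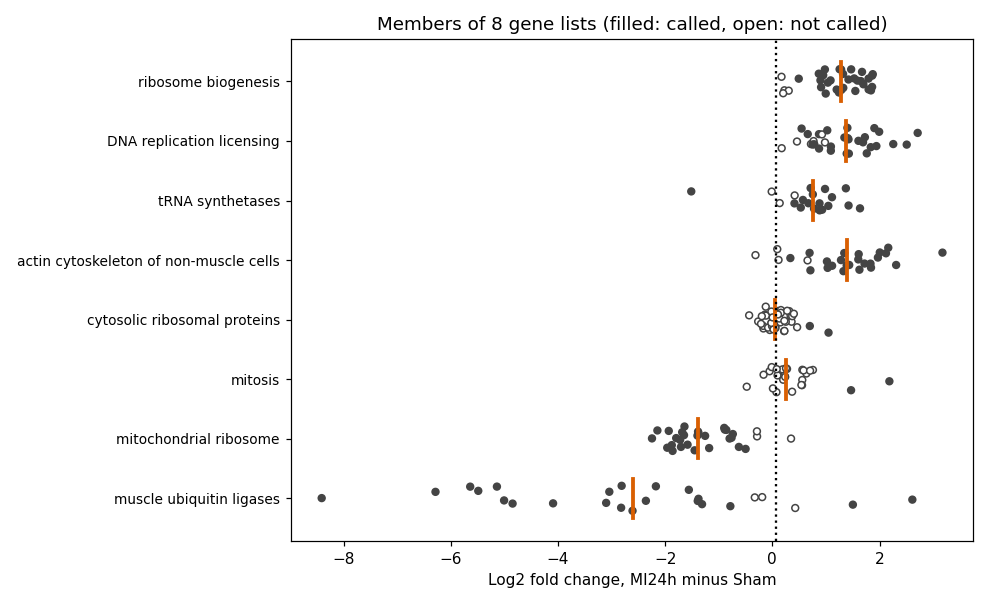
Log2 fold changes, MI24h minus Sham, of the tested members of 8 gene lists, one point per gene, filled where edgeR called it and open where it did not, with the list median as a bar and the median of all genes as a dotted line. Ribosome biogenesis and replication genes lie right of the line, cytosolic ribosomal protein and mitosis genes around it, and mitochondrial ribosome and muscle ubiquitin ligase genes left of it.

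Of 27 actin cytoskeleton genes of non-muscle cells 23 rose and 0 fell (22 under all 7 scalings, median 1.39), among them Zyx of focal adhesions (3.04-fold), Vasp (2.61-fold), Tpm3 (3.58-fold) and the abundant Actb and Vim (3.05-fold and 2.53-fold). Of 29 matrix proteases and inhibitors 19 rose and 4 fell (median 1.31, 19 rises and 3 falls under all 7 scalings). The proteoglycan-cutting Adamts4 was at 176, 133 and 72.7 CPM in MI24h, against 2.17, 3.82 and 0.768 CPM in Sham, and the abundant Adamts1 was at 371, 429 and 374 CPM in MI24h, against 97.1, 83.4 and 84.4 CPM in Sham. The groups were apart for both. The gelatinase Mmp9 of neutrophils was 66.9-fold higher. The collagenase Mmp13 and the stromelysin Mmp3 had 0 counts in all Sham libraries and 66 and 64 counts over the MI24h libraries, which makes them at least 4.93-fold and 4.95-fold higher against a floor of 3 counts per library. The inhibitors went opposite ways. Timp1 was at 1021, 759.8 and 996 CPM in MI24h, against 13.1, 298 and 22.5 CPM in Sham, and Timp4, the cardiac form, was at 1.38, 2.87 and 1.71 CPM in MI24h, against 84.3, 75.6 and 107 CPM in Sham. The Timp1 values of MI24h were all above Sham, with Sham 31 nearest to them. The gelatinase Mmp2, made by resting fibroblasts, fell 3.16-fold, and Mmp11 and Mmp15 fell too. Adamts4 had a log2 fold change of 6.42 without Sham 31, in place of 5.79. Mmp9 had a log2 fold change of 4.99 to 6.87 without Sham 31 or MI24h 11, in place of 6.06. Timp1 had a log2 fold change of 5.72 without Sham 31, in place of 3.06. Depending on which of the 7 scalings was used, the call was lost or the sign turned for Mmp2 (-0.62).

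Of 15 genes for proteoglycans and hyaluronan, a large sugar polymer of injured tissue, 6 rose and 5 fell (6 rises and 5 falls under all 7 scalings). The synthases Has1 and Has2 were 19.6-fold and 10.5-fold higher, and the hyaluronan-binding proteoglycan Vcan was at 1701, 864 and 960.2 CPM in MI24h, against 55.8, 105.3 and 24.7 CPM in Sham. Osteoglycin (Ogn), a collagen-binding proteoglycan of resting fibroblasts, was at 13.3, 14.5 and 23.9 CPM in MI24h, against 376, 238 and 435 CPM in Sham, and decorin (Dcn) was 3.77-fold lower. Among 17 basement membrane genes 5 fell and 4 rose (4 rises and 4 falls under all 7 scalings). These shares, 29.4% and 23.5%, lay near those of all genes (26.2% and 28%). The common collagen IV chains Col4a1 and Col4a2 rose 1.68-fold and 2.02-fold, Nid2 2.91-fold and Col18a1, the source of endostatin, 8.46-fold, while the α3, α4 and α5 chains Col4a3, Col4a4 and Col4a5 fell 13.9-fold, 8.41-fold and 6.39-fold and the muscle laminin Lama2 5.40-fold. Has1 had a log2 fold change of 4.91 without Sham 31, in place of 4.30. Has2 had a log2 fold change of 4.10 without Sham 31, in place of 3.39. Vcan had a log2 fold change of 4.89 without Sham 31, in place of 4.24. Col4a2 lost its call without MI24h 21 (log2 fold change 0.78). Col4a3 had a log2 fold change of -2.66 without Sham 11, in place of -3.79. Col4a4 had a log2 fold change of -2.32 without Sham 11, in place of -3.07.

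Of 25 coagulation and fibrinolysis genes 12 rose and 3 fell, with a median of 0.66 (11 rises and 0 falls under all 7 scalings). The urokinase Plau, which activates plasmin, was at 100.6, 116 and 111 CPM in MI24h, against 2.55, 16.7 and 4.61 CPM in Sham. Every Sham value lay under every MI24h value. The urokinase receptor Plaur and the urokinase inhibitor Serpinb2 had no Sham count and were at least 3.03-fold and 14.5-fold higher. Tissue factor (F3), the trigger of clotting, fell 2.28-fold and Serpine2 1.58-fold, the fibrinogen chain Fgg was at 0.0729, 0 and 0 CPM in MI24h, against 0.378, 0 and 2.74 CPM in Sham, with overlapping groups at very low counts, and Tfpi2, an inhibitor of plasmin and other proteases, rose 9.65-fold. The abundant Anxa2, which binds plasminogen and its activator, rose 4.03-fold. Plau had a log2 fold change of 4.96 without Sham 31, in place of 3.76. Fgg lost its call without Sham 41, MI24h 11, MI24h 21 or MI24h 41 (log2 fold change -6.89 to -2.65) and had a log2 fold change of -5.62 without Sham 31, in place of -5.03. Anxa2 had a log2 fold change of 2.74 without Sham 31, in place of 2.01. Under at least 1 of the 7 scalings the call was lost or the sign turned for F3 (-0.47 to -0.16), Serpine2 (-0.32 to 0.34) and Fgg (-4.60 to -0.36).

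Of 30 genes of the TGF-β and BMP family 18 rose and 4 fell (18 rises and 0 falls under all 7 scalings). The activin chain Inhba was at 44.1, 15.9 and 8.64 CPM in MI24h, against 0.85, 0.091 and 0.219 CPM in Sham. Its soluble inhibitor follistatin (Fst) was 14.1-fold higher, and the BMP inhibitor Grem1 was at 4.88, 2.93 and 4.80 CPM in MI24h, against 0.189, 0 and 0.11 CPM in Sham. Tgfb1 and Tgfb2 were 2.82-fold and 6.36-fold higher and Tgfbi, their matrix target, 4.46-fold, while Bmp6, Acvr1, Smad6 and Id1 fell. Without Sham 41 or MI24h 21, 2 genes fell. Of 25 growth factors 11 rose and 8 fell (10 rises and 4 falls under all 7 scalings). Csf1, which keeps macrophages alive, was at 354, 363 and 353 CPM in MI24h, against 58.8, 69.1 and 50.4 CPM in Sham. Heparin-binding EGF (Hbegf) was 12.6-fold and the vessel factor Pgf 11.6-fold higher. Vegfb, Igf1 and the stem cell factor Kitlg fell 5.39-fold, 4.18-fold and 1.45-fold, and Vegfa, the best known vessel growth factor of hypoxia, was not called, at 601, 232 and 353 CPM in MI24h, against 320.1, 309 and 474 CPM in Sham. Inhba had a log2 fold change of 4.95 to 7.17 without Sham 11 or MI24h 11, in place of 5.84. Grem1 had a log2 fold change of 6.16 without Sham 11, in place of 5.30. Smad6 lost its call without Sham 11, Sham 41, MI24h 11 or MI24h 21 (log2 fold change -0.69 to -0.46). Id1 lost its call without Sham 41 or MI24h 21 (log2 fold change -0.50 to -0.43). Kitlg lost its call without Sham 11, Sham 41, MI24h 11 or MI24h 41 (log2 fold change -0.52 to -0.39). In 1 or more of the 7 scalings the call was lost or the sign turned for Bmp6 (-0.61), Acvr1 (-0.17 to 0.44), Smad6 (-0.33 to 0.31), Id1 (-0.29 to 0.36) and Kitlg (-0.19 to 0.42), and a call was gained for Vegfa (0.85 to 1.08).

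Of 16 genes of the interleukin-6 family 11 rose and 2 fell (median 1.89, 11 rises and 0 falls under all 7 scalings). Il11 and Lif, cytokines that signal through gp130, were both almost without counts in Sham. Il11 was at 35.1, 5.32 and 10.4 CPM in MI24h, against 0, 0.091 and 0 CPM in Sham. Lif was at 22.4, 2.99 and 7.40 CPM in MI24h, against 0.0945, 0 and 0 CPM in Sham. Il6 was at 49.9, 5.93 and 20.8 CPM in MI24h, against 0.0945, 0.273 and 0 CPM in Sham. All 3 were under 0.3 CPM in every Sham library, and MI24h 11 had the highest and MI24h 21 the lowest MI24h value of each. The shared receptor Il6st rose 2.44-fold, the oncostatin receptor Osmr 4.95-fold, the ligand Clcf1 12.1-fold, the transducer Stat3 1.53-fold and the feedback inhibitor Socs3 11.5-fold. Cardiotrophin (Ctf1) and the interleukin-11 receptor chain Il11ra1 fell 2.82-fold and 2.32-fold, and Jak1 was not called (0.28). Il11 had a log2 fold change of 7.58 to 10.95 without Sham 31 or MI24h 11, in place of 8.69. Lif had a log2 fold change of 6.99 to 10.32 without Sham 11 or MI24h 11, in place of 8.05. Il6 had a log2 fold change of 6.60 to 8.77 without Sham 31 or MI24h 11, in place of 7.53. Il6st lost its call without Sham 31, Sham 41 or MI24h 11 (log2 fold change 0.93 to 1.04) and had a log2 fold change of 2.11 without Sham 11, in place of 1.29. Socs3 had a log2 fold change of 4.34 without Sham 31, in place of 3.53. Jak1 was called without MI24h 41 (log2 fold change 0.36). With at least 1 of the 7 scalings the call was lost or the sign turned for Ctf1 (-0.73 to -0.38) and Il11ra1 (-0.41 to -0.0984), and a call was gained for Jak1 (0.61 to 1.26).

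Of 12 CXC chemokines 8 rose and 1 fell (8 rises and 1 fall under all 7 scalings). The neutrophil attractant Cxcl1 was at 60.9, 16.6 and 44.3 CPM in MI24h, against 0.189, 4.19 and 0.768 CPM in Sham. Cxcl12, which holds cells in tissue and vessels, was at 4.88, 57.2 and 11.7 CPM in MI24h, against 251, 190.5 and 283 CPM in Sham and was lower in every MI24h library. The neutrophil attractants Cxcl2 and Cxcl3 had at most 4 counts and 0 counts in a Sham library, and Cxcl3, with 942 counts over the MI24h libraries, was at least 74.9-fold higher. Cxcl2 was at 49.9, 7.70 and 35.9 CPM in MI24h, against 0, 0.364 and 0.219 CPM in Sham. Cxcl16 rose 2.697-fold. Without Sham 41, 5 of the CXC chemokines rose. Of 17 CC chemokines and relatives 11 rose and 4 fell (8 rises and 2 falls under all 7 scalings). The monocyte attractants Ccl2 and Ccl12 were 16.1-fold and 35.9-fold higher, Ccl3 21.3-fold, Ccl6 5.89-fold and Ccl9 12.4-fold. Those that fell were Ccl5, Ccl19, Ccl21 and Cx3cl1, signals for lymphocytes or made by endothelium. The summed level of T and NK cell genes was 87.7 to 151 CPM in MI24h, against 109 to 145 CPM in Sham, so the ranges overlapped. Cxcl1 had a log2 fold change of 6.45 without Sham 31, in place of 4.53. Cxcl12 had a log2 fold change of -4.85 without MI24h 21, in place of -3.29. Cxcl2 had a log2 fold change of 6.66 to 8.15 without Sham 11 or Sham 31, in place of 7.26. Ccl2 had a log2 fold change of 6.43 without Sham 31, in place of 4.01. Ccl12 had a log2 fold change of 4.51 to 5.93 without Sham 31 or MI24h 21, in place of 5.17. Ccl3 had a log2 fold change of 5.16 without Sham 31, in place of 4.41. Ccl9 had a log2 fold change of 6.27 without Sham 31, in place of 3.63. Ccl19 had a log2 fold change of -1.81 without Sham 31, in place of -2.79. Ccl21 had a log2 fold change of -2.71 without MI24h 21, in place of -2.10. Across the 7 scalings, at least once, the call was lost or the sign turned for Ccl5 (-0.40 to -0.0784) and Cx3cl1 (-0.48).

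Macrophage genes were counted in separate lists. Of 20 genes of recruited monocytes and macrophages 14 rose and 0 fell (14 rises and 0 falls under all 7 scalings), with arginase (Arg1) 81.8-fold and the abundant fibronectin (Fn1) and lysozyme (Lyz2) 14.3-fold and 5.40-fold higher. Of 17 genes of resident macrophages 5 rose (3 without Sham 11 or Sham 41) and 5 fell (5 rises and 2 falls under all 7 scalings). These shares, 29.4% and 29.4%, lay near those of all genes (28% and 26.2%). The summed level of the resident list was 1074 to 1307 CPM in MI24h, against 1504 to 1603 CPM in Sham. The bridging ligand Gas6, which tags dead cells for uptake, was at 60.9, 115 and 85.4 CPM in MI24h, against 667, 518 and 786 CPM in Sham. Its receptor Mertk was at 21.3, 25.97 and 19.7 CPM in MI24h, against 8.13, 4.55 and 3.40 CPM in Sham. Gas6 was lower and Mertk higher in every MI24h library than in any Sham library. Csf1r and the clotting transglutaminase F13a1 rose 2.05-fold and 4.16-fold, and the complement parts C1qa, C1qb and C1qc fell 2.48-fold, 2.34-fold and 2.04-fold. Complement as a whole had 10 of 17 genes lower and 3 higher (3 rises and 3 falls under all 7 scalings), with Vtn and C1s of stromal cells 8.004-fold and 7.42-fold lower, clusterin (Clu) 2.75-fold and C1r 2.64-fold lower. With library size alone 5 complement genes were lower and 4 higher. Properdin (Cfp), carried by neutrophils, was 5.16-fold, the inhibitor Cd55 2.69-fold and the C3a receptor C3ar1 2.90-fold higher. Fn1 had a log2 fold change of 4.53 without Sham 31, in place of 3.84. Lyz2 had a log2 fold change of 3.83 without Sham 31, in place of 2.43. Csf1r lost its call without Sham 11 or Sham 41 (log2 fold change 0.76 to 0.82) and had a log2 fold change of 1.67 without Sham 31, in place of 1.04. Clu lost its call without MI24h 21 (log2 fold change -1.34). C3ar1 lost its call without Sham 41 (log2 fold change 1.14) and had a log2 fold change of 2.34 without Sham 31, in place of 1.54. Depending on which of the 7 scalings was used, the call was lost or the sign turned for C1qa (-0.54 to -0.27), C1qb (-0.48 to -0.21), C1qc (-0.67 to -0.00288), Clu (-0.72 to -0.55) and C1r (-0.42).

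In the prostaglandin and leukotriene list 10 of 25 rose and 8 fell (10 rises and 5 falls under all 7 scalings). The inducible cyclooxygenase Ptgs2 was at 60.2, 10.5 and 20.6 CPM in MI24h, against 0, 1.46 and 0.548 CPM in Sham. The prostaglandin E synthase Ptges was at 17.6, 2.93 and 6.79 CPM in MI24h, against 0, 0 and 0.219 CPM in Sham. Ptges had almost no count in Sham. The abundant Ptges3 was not called (0.48), the constitutive Ptges2 was 2.72-fold lower, and the D synthases Ptgds and Hpgds fell as well. The leukotriene B4 receptor Ltb4r and the prostacyclin receptor Ptgir rose 44.1-fold and 9.03-fold. Ltc4s, which makes the other class of leukotrienes, had 88 counts over the Sham libraries and none in MI24h, at least 14.1-fold lower. Ptgs2 had a log2 fold change of 4.50 to 6.86 without Sham 11, Sham 31 or MI24h 11, in place of 5.47. Ptges had a log2 fold change of 6.03 to 10.06 without Sham 41 or MI24h 11, in place of 6.93. Ptges3 was called without Sham 31 (log2 fold change 0.68). Hpgds lost its call without Sham 41, MI24h 11, MI24h 21 or MI24h 41 (log2 fold change -2.48 to -2.21). Ptgir had a log2 fold change of 3.84 without Sham 31, in place of 3.17. Under at least 1 of the 7 scalings the call was lost or the sign turned for Hpgds (-2.06 to -0.54), and a call was gained for Ptges3 (0.82 to 1.49).

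Interferon response genes were mostly not called. Of 34 tested 4 rose and 1 fell (median 0.17, 4 rises and 0 falls under all 7 scalings). Their summed level was 5080, 4701 and 1474 CPM in MI24h, against 6513, 1478 and 3318 CPM in Sham, and the ranges overlapped. The antiviral synthetases Oas1b, Oasl and Oasl2 and Ifit3 were the risers, with Oas1b at 170.4, 22.9 and 48.3 CPM in MI24h, against 8.503, 9.74 and 2.85 CPM in Sham. The abundant Irf7 and Ifi27 were not called (0.19 and -0.75). The log2 fold change of Irf7 was 1.64 without Sham 11 and -0.29 without Sham 31. Without Sham 31, 2 rose and 3 fell, and without Sham 41 or MI24h 11 the number that rose was 2. Oas1b had a log2 fold change of 2.33 without MI24h 11, in place of 3.50. Oasl had a log2 fold change of 3.97 without Sham 11, in place of 2.84. Oasl2 lost its call without Sham 31, Sham 41 or MI24h 11 (log2 fold change 1.68 to 1.83) and had a log2 fold change of 3.26 without Sham 11, in place of 2.15. Ifit3 lost its call without Sham 31, Sham 41, MI24h 11 or MI24h 21 (log2 fold change 1.31 to 2.15) and had a log2 fold change of 3.62 without Sham 11, in place of 2.004. In 1 or more of the 7 scalings the call was lost or the sign turned for Ifi27 (0.0562 to 0.28).

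Among immediate early genes 20 of 27 rose and 2 fell (median 1.51, 20 rises and 0 falls under all 7 scalings). The AP-1 gene Junb was at 751, 387 and 547 CPM in MI24h, against 50.3, 129 and 67.3 CPM in Sham. Fosl1 and Maff were 51.2-fold and 5.10-fold higher, and the abundant Jund was not called (0.30). The 2 that fell, Klf2 and Klf4, are kept up by laminar flow in endothelium, with Klf2 at 95.3, 101.1 and 94.96 CPM in MI24h, against 165, 187 and 238 CPM in Sham. Clock genes had 7 lower and 4 higher of 16 (4 rises and 2 falls under all 7 scalings). The output factor Tef was 3.18-fold and the repressor Nr1d1 3.16-fold lower, while Bhlhe40 and Nfil3, which repress clock output, were 3.36-fold and 3.30-fold higher, as were Rora and Ciart (2.28-fold and 3.05-fold). With library size alone 4 were lower and 8 higher. Without MI24h 41 the number of clock genes that fell was 4. Fosl1 had a log2 fold change of 6.52 without Sham 31, in place of 5.68. Rora lost its call without Sham 31, Sham 41, MI24h 11 or MI24h 41 (log2 fold change 0.75 to 1.23) and had a log2 fold change of 1.80 without Sham 11, in place of 1.19. Ciart had a log2 fold change of 1.01 without MI24h 11, in place of 1.61. With at least 1 of the 7 scalings the call was lost or the sign turned for Klf2 (-0.26 to 0.0054), Klf4 (-0.31 to -0.0384) and Nr1d1 (-0.59), and a call was gained for Jund (0.65 to 1.33).

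Against the reperfused hearts far fewer genes were called. Against MI1h_R edgeR called 507 genes (4.32%) and against MI6h_R 59 genes (0.502%), and these counts are fragile, since with only the 2 groups of a comparison fitted edgeR called 0 genes against MI1h_R and 5 against MI6h_R, with 1837 and 943 genes at an unadjusted p under 0.05. DESeq2 on all libraries called 1073 and 196 genes. With 1 library left out, edgeR called between 68 (without MI24h 11) and 943 (without MI1h_R 41) genes against MI1h_R, with 185 without MI1h_R 11 and 103 without MI1h_R 31. Against MI6h_R it called between 14 (without MI24h 11) and 110 (without MI24h 21) genes, with 17 and 21 without MI6h_R 21 and 31 and 33 without MI24h 41. Of 29 hypoxia genes 16 rose against Sham and 2 fell (15 rises and 1 fall under all 7 scalings). The collagen enzymes Plod2 and Lox were 4.95-fold and 9.81-fold higher, and the oxygen-regulated factor Epas1 and the mitochondrial Fam162a 2.09-fold and 2.87-fold lower than in Sham. Of the same genes 14 were higher than in MI1h_R (2.81% of all genes were) and 14 than in MI6h_R (0.392% of all genes), with 0 and 0 lower. Vegfa averaged 395 CPM in MI24h, 104.1 CPM in MI1h_R, 114 CPM in MI6h_R and 368 CPM in Sham. The oxygen sensor Egln3, itself induced by hypoxia, averaged 499 CPM in MI24h, 74.0 CPM in MI1h_R, 57.4 CPM in MI6h_R and 356 CPM in Sham. Both were called higher in MI24h than in either reperfused group (log2 fold changes of 1.93 ± 0.34 and 1.79 ± 0.33 for Vegfa, 2.75 ± 0.47 and 3.12 ± 0.48 for Egln3) and not called against Sham on the TMM scale. In the mitosis list 9 of 25 genes were lower in MI24h than in MI1h_R (1.51% of all genes were) and 0 higher, with Mki67 at 36.1 CPM in MI24h, 103.5 CPM in MI1h_R and 31.4 CPM in Sham. In the 3 comparisons the same MI24h libraries are used, so they are not independent. Epas1 lost its call without Sham 11, MI24h 11 or MI24h 41 (log2 fold change -1.09 to -0.46). Across the 7 scalings, at least once, the call was lost or the sign turned for Epas1 (-0.75 to 0.0332), and a call was gained for Vegfa (0.85 to 1.08), Egln3 (1.22 to 1.39) and Mki67 (0.86 to 0.90).

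**Figure D5:**
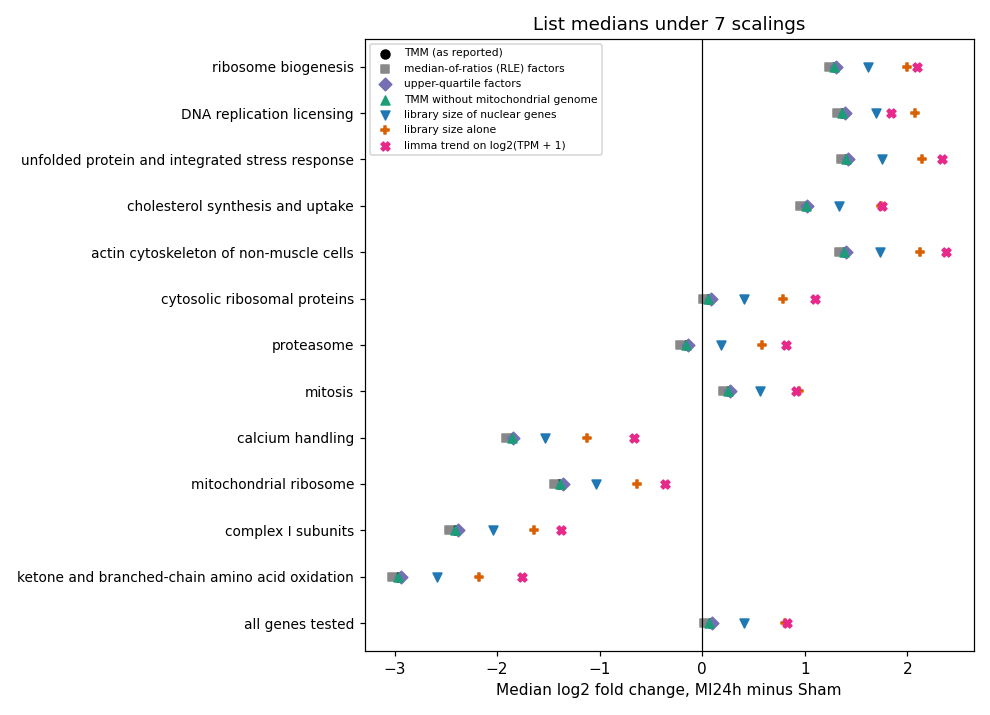
Median log2 fold change, MI24h minus Sham, of 12 gene lists and of all genes under the 7 scalings, one symbol per scaling. Lists such as complex I or ribosome biogenesis stay on 1 side of 0, while cytosolic ribosomal proteins, the proteasome and all genes move from about 0 to well above it with library size or TPM.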

How the data were processed

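RNA of the labelled infarct zone was extracted with RNeasy columns and DNase I, mRNA was selected, and NEBNext Ultra libraries were sequenced on an Illumina HiSeq instrument, per the labels' protocols. The submitters' processing notes name STAR 2.7.3a, RSEM 1.3.1 and the build rn7; strandedness and annotation are not given in the sources used here. The authors deposited estimated counts per gene symbol, as whole numbers, and a table of TPM, which are scaled per transcript length and per library. In the counts 1131 symbols, of which 492 were tested, fall into 353 sets whose members hold identical values in every library, so near-identical or overlapping genes are uncertain.

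Counts were tested with edgeR 4.0.16 (R 4.3.3) by its quasi-likelihood test on all 21 libraries with 1 term for each of the 7 groups, after filterByExpr, TMM scaling and Benjamini-Hochberg adjustment over all 11742 genes. A gene was called at an adjusted p under 0.05. Fold changes are MI24h over the other group. The fit was tested on simulated data in which few genes were changed, with 6 false calls among 11742 genes. Alternatives used limma 3.58.1, DESeq2 1.42.0, pseudocounts of 1 and 0.1 on TPM, other scalings and filters, and each library left out. Isoform shares were computed from the deposited TPM within a library. Promoters came from RefSeq, and figures were drawn with matplotlib 3.10.9.

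The 83 gene lists hold 1895 symbols, of which 1619 have a row (28 under an alias) and 1542 were tested. The genes described and the lists were chosen with earlier results of these data known. Of each list described, the 3 genes with the smallest p, the 2 most abundant and those called against the majority were named, others for their role, and the counts cover all tested members. Some genes that this rule names are not reported here.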

Additional observations from a re-analysis of the deposited data

How the results depend on the processing

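The number of genes called higher or lower depended on the scaling. With TMM 3293 genes were called higher and 3078 lower. Library size alone gave 6484 and 1504, log2(TPM + 1) 7375 and 1208, and log2(TPM + 0.1) 7509 and 1187. On log2(TPM + 0.1) 6812 called genes changed at least 2-fold, in place of 4202. Fitted on the 2 groups only, 4615 genes were called in place of 6371, with 2145 higher and 2470 lower. In that fit 37 of 283 named genes had a weaker result. The median log2 fold change of all genes, 0.07, was 0.0207 with median-of-ratios factors, 0.0208 with DESeq2, 0.41 with the library size of nuclear genes, 0.80 with library size alone, 0.83 and 1.06 on log2(TPM + 1) and log2(TPM + 0.1), 0 with no filter, and 0.0515 to 0.11 with 1 library left out. With 1 library left out, 5320 to 6377 genes were called against Sham, 2640 to 3332 of them higher and 2663 to 3072 lower, and 3657 to 4496 of at least 2-fold. The difference in mitochondrial share, -20.2 percentage points, was -21.6 to -18.95. In the fit with all libraries and in each with 1 MI24h or Sham library left out, 2381 genes were called higher and 2356 lower, and 2375 and 1174 did so under the 7 scalings as well.

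Counts against the reperfused groups were less steady. The 507 genes against MI1h_R were 1073 with DESeq2, 1509 with voom and quality weights, 0 with only the 2 groups, 73 with the 12 libraries without F and 68 to 943 with 1 library left out. The 59 genes against MI6h_R were 196 with DESeq2, 23 on log2(TPM + 0.1), 5 with only the 2 groups, 13 with the 12 libraries without F and 14 to 110 with 1 library left out. The cause was not tested. With the replicate block 5003 genes were called against Sham (2599 higher and 2404 lower, 3733 of at least 2-fold, median 0.09), 53 against MI1h_R and 5 against MI6h_R. Only numbers 11 and 41 are shared between MI24h and Sham. The deviations of same-numbered libraries had correlations of 0.392 and 0.331, but MI24h 41 and Sham 31 reached 0.446, so the numbers were not taken as pairs.

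Among the named genes, signs turned with library size alone for Acvr1 (0.23), Birc2 (0.0534), Cryab (0.16), Ctnna1 (0.0738), Diablo (0.0994), Hsp90ab1 (0.75), Hspa9 (0.0476), Hspd1 (0.20), Id1 (0.10), Ifi27 (0.0562), Kitlg (0.21), Mrpl17 (0.24), Prc1 (0.55), Psmb7 (0.015), Psmd2 (0.64), Serpine2 (0.0741), Slc38a1 (0.46), Slc38a2 (0.33) and Smad6 (0.0691). Signs turned with the library size of nuclear genes for Hsp90ab1 (0.35), Prc1 (0.16), Psmd2 (0.24) and Slc38a1 (0.0539). Signs turned with limma on log2(TPM + 1) for Acvr1 (0.44), Birc2 (0.31), Casp12 (0.0842), Cryab (0.42), Ctnna1 (0.34), Diablo (0.34), Epas1 (0.0332), Fdft1 (0.13), Hsp90ab1 (1.02), Hspa9 (0.32), Hspd1 (0.46), Id1 (0.36), Ifi27 (0.28), Kitlg (0.42), Klf2 (0.0054), Mrpl17 (0.50), Myh7 (0.69), Prc1 (0.69), Psmb7 (0.27), Psmd2 (0.90), Serpine2 (0.34), Slc38a1 (0.71), Slc38a2 (0.58) and Smad6 (0.31). Signs turned with limma on log2(TPM + 0.1) for Acvr1 (0.48), Birc2 (0.34), Casp12 (0.0982), Cryab (0.42), Ctnna1 (0.34), Diablo (0.35), Epas1 (0.0357), Fdft1 (0.13), Hsp90ab1 (1.02), Hspa9 (0.32), Hspd1 (0.46), Id1 (0.37), Ifi27 (0.28), Kitlg (0.43), Klf2 (0.00537), Mrpl17 (0.51), Myh7 (0.69), Prc1 (0.83), Psmb7 (0.27), Psmd2 (0.91), Serpine2 (0.34), Slc38a1 (0.79), Slc38a2 (0.58) and Smad6 (0.35). Signs turned with voom and quality weights for Bcl2l1 (-0.0493), Prc1 (0.0956) and Vegfa (-0.41). Signs turned with the replicate block for Hsp90ab1 (0.0356) and Irf7 (-0.14). Signs turned with upper-quartile factors for Hsp90ab1 (0.0237). Signs turned without Sham 31 and MI24h 11 together for Hsp90ab1 (0.12), Irf7 (-0.69), Myh7 (0.27), Prc1 (0.13), Psmd2 (0.0645) and Vegfa (-0.43). With 1 library left out, signs turned for Hsp90ab1 (-0.15 to 0.0924), Irf7 (-0.29 to 1.64), Mki67 (-0.0927 to 0.42), Myh7 (-1.14 to 0.30), Rplp0 (-0.0938 to 0.49), Slc38a1 (-0.43 to 0.0786) and Vegfa (-0.33 to 0.38), given as the range over the libraries left out. The cause was not tested. With 3 libraries a group, 0 of 50 simulated 1.5-fold changes were called where few genes were changed. The exact test could not go below a p of 0.1. The alternative without both Sham 31 and MI24h 11 was chosen after seeing the data.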
